A study of Mus musculus with 13 samples.

Results

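Transcript levels of 7 Fc receptor genes were measured in brain-resident myeloid cells of PS2APP mice with and without Trem2. The genes were chosen by name as receptors for antibody and their close partners, not by a measured value: the Fc gamma receptors Fcgr1, Fcgr2b, Fcgr3 and Fcgr4, the shared signalling chain Fcer1g, the neonatal Fc receptor Fcgrt and the receptor-like gene Fcrls. All 7 were among the 52636 genes of the count tables and among the 17086 with enough counts to be tested. All 13 mice were homozygous for the PS2APP transgenes, which encode human presenilin 2 and amyloid precursor protein with familial Alzheimer mutations and cause β-amyloid plaques, and all were 14 to 15 months old. The 7 PS2APP;Trem2wt mice (5 female, 2 male) carried wild-type Trem2, and the 6 PS2APP;Trem2ko mice (5 female, 1 male) carried a null allele in place of both copies. Each sample was the RNA of CD11b+ cells sorted from the cortex and hippocampus of a single mouse, gated on CD45 and against the neutrophil marker Ly6g and the monocyte marker Ccr2. The null allele is constitutive, so Trem2 was missing from every cell of the animal throughout life and not from the sorted cells alone.

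Fc receptors bind the constant part of antibodies, and on microglia and other macrophages they link antibody-coated material to phagocytosis. Activating receptors signal through a tyrosine motif in the Fcer1g chain, which Src family kinases phosphorylate and Syk then reads, while Fcgr2b carries an inhibitory motif that recruits phosphatases. Trem2 signals through a chain of the same type, encoded by Tyrobp (DAP12), which recruits Syk as well. Comparing the genotypes therefore asks whether transcripts of the antibody receptors differed where the Trem2 receptor was missing.

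Total counts ranged from 26120961 to 120569609 per mouse, with a median of 35201380 in PS2APP;Trem2wt and 55371726 in PS2APP;Trem2ko mice. Levels are given as nRPKM, reads per length and per library depth with a size factor applied, and differences as log2 fold changes of PS2APP;Trem2ko against PS2APP;Trem2wt from edgeR's quasi-likelihood test on counts, with p-values adjusted by Benjamini-Hochberg over all tested genes and a threshold of 0.05. Trem2 was at 1044 ± 141 nRPKM (mean ± SD, n = 7) in PS2APP;Trem2wt and at 0.887 ± 0.734 nRPKM (n = 6) in PS2APP;Trem2ko mice (log2 fold change −10.29, edgeR adjusted p = 5.47e-09), so every library matched its genotype label. The 10 microglia markers summed to between 14569 and 17835 nRPKM in PS2APP;Trem2wt and to between 14937 and 16628 nRPKM in PS2APP;Trem2ko mice. Of these 10, Cx3cr1 was lower in PS2APP;Trem2ko mice (log2 fold change −0.49, edgeR adjusted p = 0.0067) and the other 9 did not pass. Border macrophage markers summed to 12.5 to 59.0 nRPKM and monocyte markers to 3.41 to 25.5 nRPKM over the 13 mice, and no gene of either list passed the test between genotypes. Neutrophil markers summed to 14.9 to 264.8 nRPKM (median 53.5) in PS2APP;Trem2wt and 0.149 to 46.3 nRPKM (median 34.2) in PS2APP;Trem2ko mice. Ly6g itself stayed at or below 0.137 nRPKM in every library, and none of the 5 tested neutrophil markers passed the test. NK and T cell markers summed to at most 7.59 nRPKM in any library. What part these other cells had in the receptor levels was not tested. The highest neutrophil sum was in the male PS2APP;Trem2wt replicate 2. In bulk RNA of sorted cells, fewer cells of a type and less RNA per cell cannot be told apart.

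4 of the 7 genes lie together on chromosome 1, within 275.7 kb (GENCODE M21, GRCm38). Fcgr2b spans chr1:170958617-170976547 on the minus strand, Fcgr4 spans chr1:171018920-171029761 on the plus strand, Fcgr3 spans chr1:171051174-171064935 on the minus strand, and Fcer1g spans chr1:171229572-171234365 on the minus strand. Of the 11 protein-coding genes in this interval 9 were tested. None passed between genotypes, beside 1.53% of all tested genes called lower and 0.503% called higher. Fcrls (chr3:87250758-87263738, minus strand) and Fcgr1 (chr3:96282909-96293969, minus strand) lie apart on chromosome 3, and Fcgrt lies on chromosome 7 (chr7:45092990-45103851, minus strand). Fcgr2b and Fcgr3 share sequence. Of the 50-base words in the annotated transcripts of Fcgr3, 9.58% also occur in Fcgr2b, and 6.95% of those of Fcgr2b occur in another gene, so part of the reads of these 2 genes could not have been placed uniquely. The annotation lists an antisense gene over Fcgr2b (Gm38204) and another over Fcgrt (Gm45669), and whether counting used the strand is not given in the sources used here.

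The promoters of Fcgr1 and Fcgr4, the pair whose levels went together most closely from mouse to mouse, are shown from RefSeq on GRCm38.p6. That of Fcgr3, whose correlation with either gene did not pass the test, is shown as well. Each holds 250 bases before and 50 bases after the start site, 5′ to 3′ on the gene's own strand, for Fcgr1 at chr3:96293920-96294219 (minus), for Fcgr4 at chr1:171018676-171018975 (plus) and for Fcgr3 at chr1:171059354-171059653 (minus). Capitals mark matches on either strand to GAGGAA, a core of the myeloid factor PU.1 (TTCCTC on the other strand), to TTCNNNGAA, a STAT core, and to GAAANNGAA, a core of interferon response elements. These motifs were chosen after the sequences had been seen.
Fcgr1: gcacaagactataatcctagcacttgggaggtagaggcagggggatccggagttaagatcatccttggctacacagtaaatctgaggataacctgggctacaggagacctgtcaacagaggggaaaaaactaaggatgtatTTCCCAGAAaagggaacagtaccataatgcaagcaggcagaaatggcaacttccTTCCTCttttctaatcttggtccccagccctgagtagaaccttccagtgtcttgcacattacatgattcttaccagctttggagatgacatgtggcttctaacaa
Fcgr4: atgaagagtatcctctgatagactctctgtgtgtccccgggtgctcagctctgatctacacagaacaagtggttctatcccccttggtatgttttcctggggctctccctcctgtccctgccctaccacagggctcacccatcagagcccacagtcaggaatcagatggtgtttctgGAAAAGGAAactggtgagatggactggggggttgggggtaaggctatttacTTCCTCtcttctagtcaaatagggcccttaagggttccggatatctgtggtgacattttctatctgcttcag
Fcgr3: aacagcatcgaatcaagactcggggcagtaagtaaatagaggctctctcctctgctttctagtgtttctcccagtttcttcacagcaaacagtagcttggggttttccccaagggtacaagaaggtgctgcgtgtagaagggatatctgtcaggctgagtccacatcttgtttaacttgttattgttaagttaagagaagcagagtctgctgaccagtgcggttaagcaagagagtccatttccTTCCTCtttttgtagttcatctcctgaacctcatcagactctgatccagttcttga

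GAGGAA was found in the promoters of 4 of the 7 genes, those of Fcgr1, Fcgr3, Fcgr4 and Fcrls, against 28.3% of all 32851 RefSeq promoters of the same length. In Fcgr3 it started 6 bases upstream of the start site shown (−6), which is 15 bases upstream of a second RefSeq start site (−15), in Fcgr4 at −22, in Fcgr1 at −55 and in Fcrls at −144. TTCNNNGAA was found in Fcgr1 alone, at −109, against 8.30% of all promoters. GAAANNGAA was found in Fcgr4 alone, at −73, against 8.56% of all promoters. No matches overlapped within a promoter. The promoters of Fcgr2b, Fcer1g and Fcgrt held none of the 3 motifs in this window.

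Fcrls, Fcgr3 and Fcer1g were among the most abundant transcripts of these cells. By mean nRPKM they ranked 23, 27 and 34 of the 17086 tested genes, Fcgr2b ranked 286, Fcgr1 410, Fcgrt 577 and Fcgr4 2745. Over all 13 mice the median level was 1309 nRPKM for Fcrls, 1130 for Fcgr3, 849.5 for Fcer1g, 97.5 for Fcgr2b, 76.8 for Fcgr1, 60.6 for Fcgrt and 13.5 for Fcgr4. By nRPKM the order held in 13 of 13 mice for 5 of the 6 neighbouring pairs (two-sided exact sign-flip permutation p = 0.000244, the smallest that 13 mice can give, adjusted p = 0.000293 over the 6 pairs). Fcrls exceeded Fcgr3 in 10 of 13 mice by a mean factor of 1.12 (exact permutation p = 0.00464, adjusted p = 0.00464), with the ratio between 0.966 and 1.37. The low-affinity activating receptor Fcgr3 was thus the most abundant of the Fc gamma receptors in each mouse, and its level lay above that of the inhibitory Fcgr2b by a factor of 10.9 in PS2APP;Trem2wt and 11.6 in PS2APP;Trem2ko mice. These p-values measure agreement between mice, for neighbours picked by the same medians, and not the error of comparing levels between genes. How the sequence that Fcgr3 shares with Fcgr2b (9.58% of its words) affected its level was not tested. These levels are per length, with the gene lengths the authors used, and the place of Fcgr2b depends on them. As CPM per kilobase of GENCODE exonic bases (5790 for Fcgr2b and 2589 for Fcgr1), an alternative chosen after seeing the data, Fcgr2b lay below Fcgr1 in all 13 mice (ratio 0.718 to 0.995) and the other 5 neighbouring pairs kept their order in 13 of 13 mice.

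**Figure D1:**
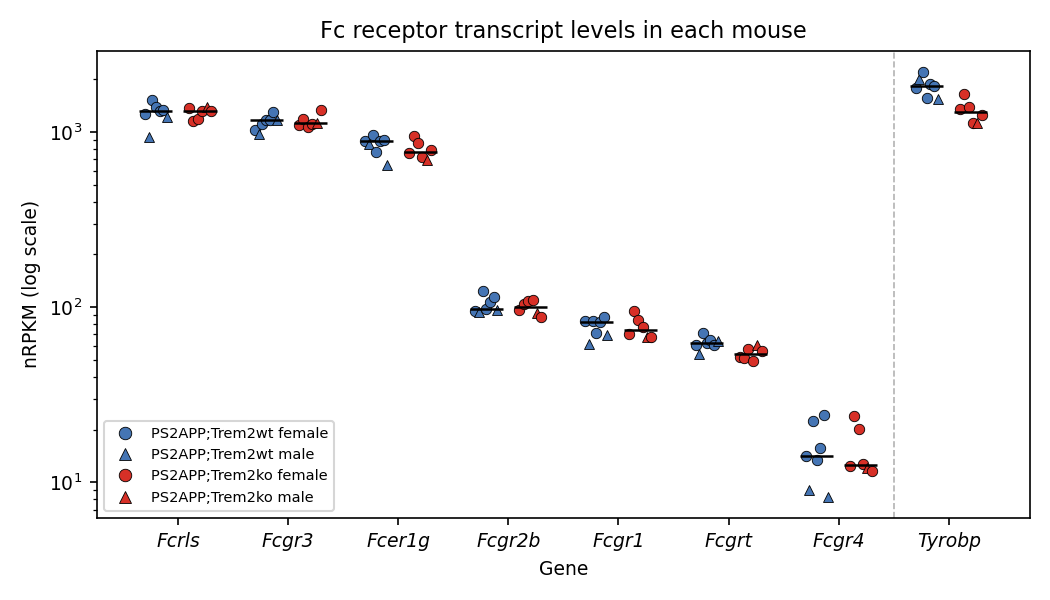
nRPKM on a log axis (vertical) of the 7 Fc receptor genes and of Tyrobp (horizontal) in each of 13 mice, with PS2APP;Trem2wt in blue, PS2APP;Trem2ko in red, circles for females, triangles for males and bars at group medians. The groups overlapped for all 7 receptor genes, and Fcgr4 was the lowest and the most variable, from 8.29 to 24.4 nRPKM.

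None of the 7 genes passed the test between genotypes. At the adjusted threshold 0 of 7 were called in either direction, beside 1.53% of all tested genes called lower and 0.503% called higher in PS2APP;Trem2ko mice. At an unadjusted p of 0.05 or less 1 of 7 was found, beside 14.8% of all tested genes, and this was Fcgrt. None of the 7 had normalized counts without overlap between genotypes, beside 1.22% of all genes without overlap and lower and 0.421% without overlap and higher. The log2 fold change was negative for 3 and positive for 4 of the 7, with a median of 0.0019 beside 0.0039 over all tested genes. DESeq2 and voom+limma also called 0 of 7, each with 1 of 7 at the unadjusted p.

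Among the activating receptors, Fcgr1 encodes the high-affinity receptor, which binds single IgG molecules. Its level was 61.9 nRPKM in the lowest, 81.9 in the median and 88.2 in the highest PS2APP;Trem2wt mouse, and 67.3, 73.7 and 95.4 nRPKM in PS2APP;Trem2ko mice. The ranges overlapped almost throughout, with 5 of 6 PS2APP;Trem2ko mice inside the PS2APP;Trem2wt range. The means were 76.9 ± 9.7 (SD, n = 7) and 77.1 ± 11.1 nRPKM (n = 6). They differed by a log2 fold change of 0.0019 (SE 0.10, 95% interval −0.21 to 0.22, edgeR adjusted p = 0.996). This interval corresponds to a fold between 0.862 and 1.16.

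Fcgr3, the low-affinity activating receptor, was at 968, 1165 and 1290 nRPKM in the lowest, median and highest PS2APP;Trem2wt mouse and at 1068, 1119 and 1327 nRPKM in PS2APP;Trem2ko mice. Only a single PS2APP;Trem2ko mouse, replicate 6, lay outside the PS2APP;Trem2wt range, and it lay above it. The means of 1129 ± 105 and 1152 ± 95 nRPKM differed by a log2 fold change of 0.026 (SE 0.074, 95% interval −0.13 to 0.18, edgeR adjusted p = 0.912).

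Fcgr4, an activating receptor of intermediate affinity, was at 8.29, 14.2 and 24.4 nRPKM in the lowest, median and highest PS2APP;Trem2wt mouse and at 11.7, 12.6 and 24.0 nRPKM in PS2APP;Trem2ko mice. All 6 PS2APP;Trem2ko mice lay inside the PS2APP;Trem2wt range. Its log2 fold change was 0.016 (SE 0.26, edgeR adjusted p = 0.985). The 95% interval of −0.53 to 0.56, a fold of 0.694 to 1.47, was the widest of the 7 genes. Its coefficient of variation was 40.0% in PS2APP;Trem2wt and 33.8% in PS2APP;Trem2ko mice, while the other 6 genes lay between 7.62% and 14.4%. The 2 PS2APP;Trem2wt males held the lowest Fcgr4 levels of all mice, 8.29 and 8.99 nRPKM, and the PS2APP;Trem2ko male was at 12.1 nRPKM. The mouse with the highest neutrophil marker sum, PS2APP;Trem2wt replicate 2, was the one at 8.99 nRPKM.

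Fcgr2b encodes the inhibitory receptor of the family. Its level was 93.5, 97.5 and 123.7 nRPKM in the lowest, median and highest PS2APP;Trem2wt mouse and 87.8, 100.3 and 109.4 nRPKM in PS2APP;Trem2ko mice. 2 PS2APP;Trem2ko mice lay below the PS2APP;Trem2wt range and 4 inside it. A log2 fold change of −0.064 (SE 0.082, 95% interval −0.24 to 0.11) had an edgeR adjusted p = 0.776.

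Because activating and inhibitory receptors compete for the same antibody, their ratio was taken within each mouse. The Fcgr1 to Fcgr2b ratio was 0.738 in PS2APP;Trem2wt and 0.769 in PS2APP;Trem2ko mice (geometric means, log2 difference 0.061, two-sided exact permutation p = 0.437). The Fcgr3 to Fcgr2b ratio differed by 0.089 on the log2 scale (exact permutation p = 0.422). The Fcgr4 to Fcgr2b ratio was 0.138 and 0.150 (log2 difference 0.12, exact permutation p = 0.634). None of these 3 ratios passed after adjustment over the 4 ratios tested, with adjusted p of 0.583, 0.583 and 0.634. In the females alone the Fcgr4 to Fcgr2b difference had the opposite sign, −0.090 on the log2 scale.

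Fcer1g encodes the FcR gamma chain, which Fcgr1, Fcgr3 and Fcgr4 need to signal and to reach the cell surface. It was at 649, 891 and 954 nRPKM in the lowest, median and highest PS2APP;Trem2wt mouse and at 688, 772 and 951 nRPKM in PS2APP;Trem2ko mice. 5 of the 6 PS2APP;Trem2ko mice lay below the PS2APP;Trem2wt median. All 6 lay inside the PS2APP;Trem2wt range by nRPKM, and by normalized count all but replicate 2, which lay above it. Its log2 fold change was −0.086 (SE 0.095, 95% interval −0.29 to 0.12, edgeR adjusted p = 0.730).

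Tyrobp, the chain that Trem2 itself uses, was lower in PS2APP;Trem2ko mice. It was at 1542, 1821 and 2197 nRPKM in the lowest, median and highest PS2APP;Trem2wt mouse and at 1124, 1300 and 1635 nRPKM in PS2APP;Trem2ko mice. By normalized count, 5 of 6 PS2APP;Trem2ko mice lay below all PS2APP;Trem2wt mice. Tyrobp had a log2 fold change of −0.48 (SE 0.10, 95% interval −0.69 to −0.27, edgeR adjusted p = 0.0202), a fold of 0.718. Without PS2APP;Trem2ko replicate 4 or replicate 6 the edgeR adjusted p was above 0.05, at up to 0.0534, and in females alone it was 0.0709.

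The 2 adaptor chains were set against each other within each mouse. The Fcer1g to Tyrobp ratio ranged from 0.421 to 0.498 in PS2APP;Trem2wt and from 0.564 to 0.638 in PS2APP;Trem2ko mice. All 6 PS2APP;Trem2ko mice lay above all 7 PS2APP;Trem2wt mice. The geometric means of 0.461 and 0.607 differed by 0.40 on the log2 scale (two-sided exact permutation p = 0.00117, the smallest that 1716 splits can give, adjusted p = 0.00466 over 4 ratios). Leaving out each mouse in turn gave differences of 0.37 to 0.42. The genotype difference of Tyrobp thus exceeded that of Fcer1g, which by itself did not pass the test.

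**Figure D2:**
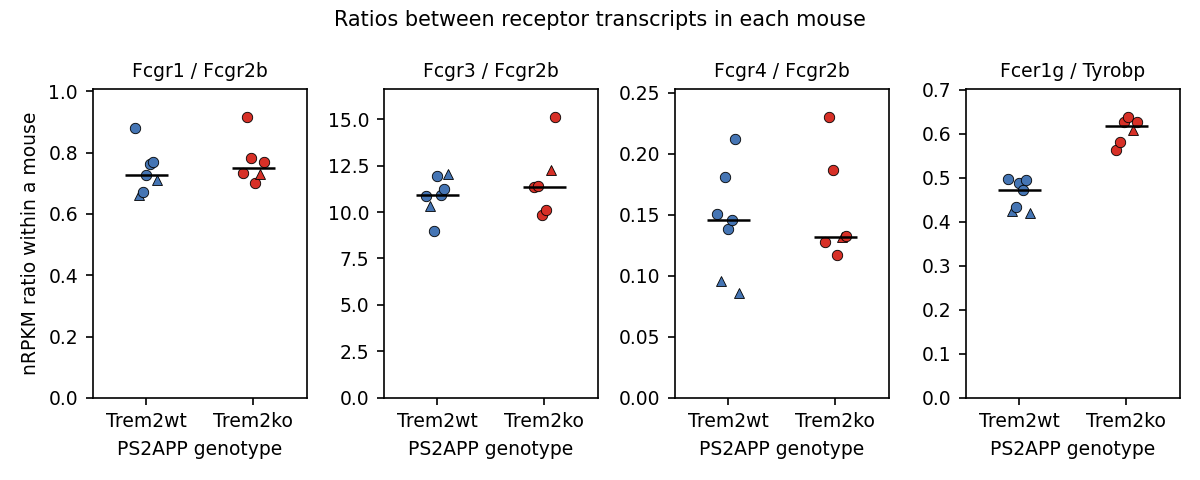
Ratio of nRPKM values within a mouse (vertical, each panel from 0) for 4 gene pairs by genotype (horizontal), with circles for females, triangles for males and bars at medians. The Fcer1g to Tyrobp ratio separated the genotypes, at 0.421 to 0.498 against 0.564 to 0.638, and the other 3 ratios overlapped.

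Fcgrt encodes the heavy chain of FcRn, which carries antibody back out of endosomes instead of leaving it to the lysosome. It was at 54.3, 62.6 and 71.3 nRPKM in the lowest, median and highest PS2APP;Trem2wt mouse and at 49.4, 54.2 and 60.6 nRPKM in PS2APP;Trem2ko mice. All 6 PS2APP;Trem2ko mice lay below the PS2APP;Trem2wt median and, by normalized count, 3 lay below the whole range. The means were 62.6 ± 5.1 and 54.5 ± 4.3 nRPKM. Fcgrt had a log2 fold change of −0.20 (SE 0.071, 95% interval −0.35 to −0.052, fold 0.868) with an edgeR adjusted p = 0.176, and was not called. Before adjustment edgeR gave it 0.0116. Over 23 alternative settings it lay between −0.27 and −0.17, with adjusted p from 0.0680 (DESeq2) to 0.318 (no filter on low counts). The −0.27 was that of females alone (edgeR adjusted p = 0.101). Female levels did not overlap, at 60.9 to 71.3 nRPKM in PS2APP;Trem2wt and 49.4 to 57.6 nRPKM in PS2APP;Trem2ko mice (n = 5 each). The males were at 54.3 and 63.7 nRPKM in PS2APP;Trem2wt and at 60.6 nRPKM in PS2APP;Trem2ko. The share of all tested genes that separate in females was not counted. B2m, the light chain that FcRn needs, was at 2462 ± 781 and 2392 ± 787 nRPKM (log2 fold change −0.041, edgeR adjusted p = 0.957). None of the 10 genes of FcRn and recycling endosomes, B2m among them, passed, beside 1.53% of all tested genes called lower and 0.503% higher.

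Fcrls encodes a receptor-like protein that is known as a microglia marker and has no signalling motif of the Fc gamma receptor kind. It was at 937, 1308 and 1519 nRPKM in the lowest, median and highest PS2APP;Trem2wt mouse and at 1146, 1310 and 1379 nRPKM in PS2APP;Trem2ko mice. All 6 PS2APP;Trem2ko mice lay inside the PS2APP;Trem2wt range, whose lowest value was that of the male replicate 2. This mouse, with the fewest counts of all (26120961), also set the lower end of the PS2APP;Trem2wt range for Fcgr1, Fcgr2b, Fcgr3 and Fcgrt. Fcrls had a log2 fold change of 0.0022 (SE 0.091, 95% interval −0.19 to 0.20, edgeR adjusted p = 0.994). The log2 fold change was higher by 0.47 in males than in females (edgeR interaction term), and males number only 2 and 1. In females alone the log2 fold change was −0.11 (edgeR adjusted p = 0.544). The PS2APP;Trem2ko male, at 1379 nRPKM, lay above both PS2APP;Trem2wt males, at 937 and 1212 nRPKM. No sex interaction of the 7 genes passed.

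Over the 13 mice, with genotype means subtracted, 5 of the 6 pairs among Fcgr4, Fcgr1, Fcer1g and Fcgr2b were correlated by Pearson's r, and 2 of these also by rank. Levels were taken as log2 CPM minus the genotype mean, and each of the 21 pairs was tested by 100000 permutations within genotype (n = 13 mice). Fcgr1 and Fcgr4 were the closest pair (Pearson's r = 0.889, permutation p = 5e-05, adjusted p = 0.00105, Spearman's rho = 0.918, permutation p = 4e-05, adjusted p = 0.00084). Without the 2 mice farthest from the median Fcgr1 level r was 0.844, and in the 10 females alone it was 0.865. Their promoters, shown above, both hold GAGGAA but differ in the other 2 motifs. Those of Fcgr3 and Fcrls also hold GAGGAA, while those of Fcer1g and Fcgr2b do not. Whether any motif bears on the correlations was not tested.

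Fcgr4 and Fcer1g gave r = 0.802 (permutation p = 0.00188, adjusted p = 0.0197) and rho = 0.797 (permutation p = 0.00269, adjusted p = 0.0282). Without the 2 farthest mice r was 0.761, and in females alone it was 0.830. Within PS2APP;Trem2ko mice alone (n = 6) this pair gave r = 0.913 and rho = 0.486. There r was −0.603 without the 2 mice farthest from the median Fcgr4 level, so that value rested on those 2 mice. Within PS2APP;Trem2wt mice (n = 7) it gave r = 0.741 and rho = 0.929, with r of 0.595 without 2 mice. A further 3 pairs passed by r but not by rho. Fcgr2b and Fcgr4 gave r = 0.759 (permutation p = 0.00722, adjusted p = 0.0475) and rho = 0.665 (permutation p = 0.0209, adjusted p = 0.0876), with r of 0.842 without the 2 farthest mice and 0.717 in females. Fcgr1 and Fcer1g gave r = 0.712 (permutation p = 0.0109, adjusted p = 0.0475) and rho = 0.725 (permutation p = 0.0111, adjusted p = 0.0581), with r of 0.777 without the 2 farthest mice and 0.835 in females. Within PS2APP;Trem2ko mice this pair gave r = 0.861 and rho = 0.600, with r of −0.213 without 2 mice. Within PS2APP;Trem2wt mice it gave r = 0.580 and rho = 0.821, with r of 0.863 without 2 mice. Fcgr1 and Fcgr2b gave r = 0.708 (permutation p = 0.0113, adjusted p = 0.0475) and rho = 0.720 (permutation p = 0.0100, adjusted p = 0.0581), with r of 0.708 without the 2 farthest mice and 0.594 in females. None of the other 16 pairs passed, among them Fcgr2b and Fcer1g (r = 0.477, permutation p = 0.118, adjusted p = 0.354, rho = 0.423, permutation p = 0.172, adjusted p = 0.515, r = 0.537 without the 2 farthest mice). No correlation of Fcgr3 with its neighbours on chromosome 1 passed, with r = 0.27 to Fcgr4, r = 0.11 to Fcgr2b and r = −0.035 to Fcer1g. With 13 mice these values do not show that the levels were unrelated.

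**Figure D3:**
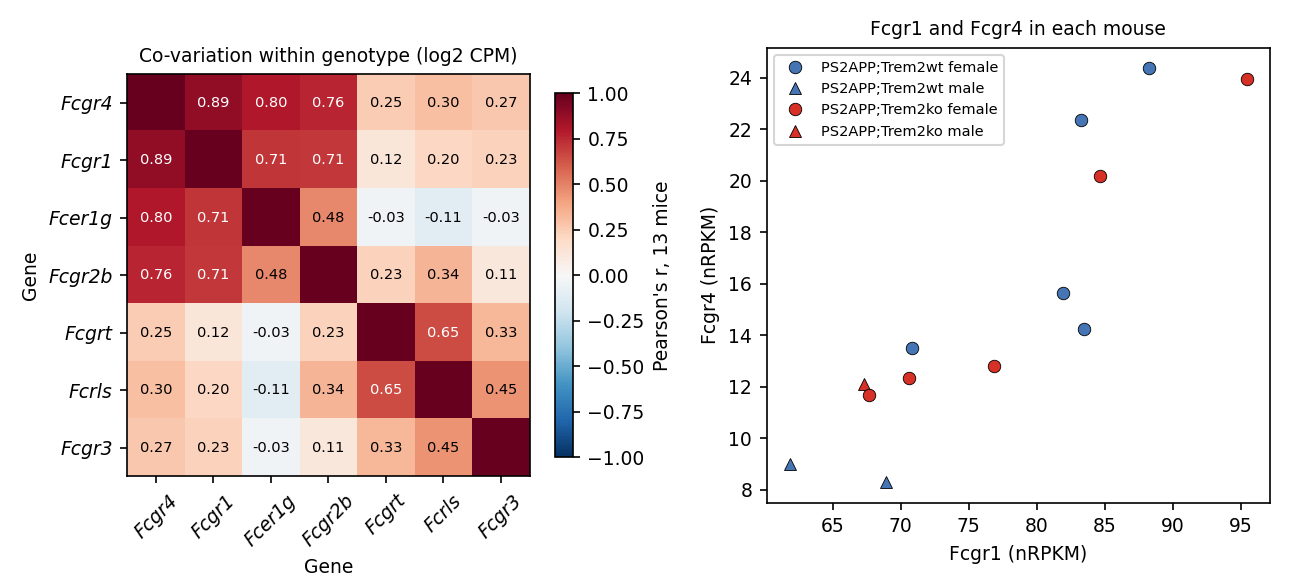
Left, Pearson's r between log2 CPM values of each pair of genes over 13 mice after subtracting genotype means (colour from −1 to 1, genes on both axes). Right, Fcgr4 against Fcgr1 level in nRPKM in each mouse, with blue for PS2APP;Trem2wt, red for PS2APP;Trem2ko, circles for females and triangles for males. Fcgr1 and Fcgr4 form the closest pair, with r = 0.889, and both genotypes hold mice with low and with high levels of the pair.

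The genes most like each receptor were then sought among the 9004 genes with a mean log2 CPM of at least 3, as a description with no test, since they were picked for their high r over the same 13 mice. Those nearest to Fcgr4 were Cmpk2 (r = 0.924), Rsad2 (r = 0.901) and Rtp4 (r = 0.896), which are all known as interferon-induced genes. The same 3 mice, PS2APP;Trem2ko replicates 2 and 3 and PS2APP;Trem2wt replicate 3, were the highest for each of these 3 genes, with Rsad2 between 1.06 and 4.10 nRPKM in PS2APP;Trem2wt and between 1.56 and 8.36 nRPKM in PS2APP;Trem2ko mice. None of them passed between genotypes, with edgeR adjusted p of 0.474 for Cmpk2, 0.263 for Rsad2 and 0.339 for Rtp4. Nearest to Fcer1g were Psme2 (r = 0.945), a proteasome activator subunit, Tmem42 (r = 0.936) and the chemokine Ccl2 (r = 0.931). Nearest to Fcgr1 were Dck (r = 0.898), Fcgr4 itself and Rcn1 (r = 0.887). Near to Fcgr2b were Cyp4v3 (r = 0.884) and Tmed1 (r = 0.865). For Fcgr3 they were Rbl1 (r = 0.907), Nsun6 (r = 0.884) and the histamine-degrading enzyme gene Hnmt (r = 0.869). For Fcgrt they were the amino acid transporter gene Slc1a5 (r = 0.863), Cdk20 (r = 0.858) and Psmf1 (r = 0.850), and for Fcrls they were Abhd12 (r = 0.926), Cse1l (r = 0.892) and Api5 (r = 0.890).

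Further Fc receptor genes were scarce. Of 12 others listed 3 were tested, and 3 stayed at or below 3 counts in every library (Fcer1a, Fcamr and Fcrl6). Fcrl1, a receptor-like gene best known from B cells that lies 112.6 kb from Fcrls (chr3:87376387-87402934, plus strand), was higher in PS2APP;Trem2ko mice. It was at 17.3, 19.6 and 20.1 nRPKM in the lowest, median and highest PS2APP;Trem2wt mouse and at 25.9, 27.5 and 31.6 nRPKM in PS2APP;Trem2ko mice. The groups did not overlap. Its log2 fold change was 0.57 (SE 0.066, 95% interval 0.43 to 0.71, edgeR adjusted p = 0.000151), it was called in all 13 fits without 1 mouse, and in females alone the adjusted p was 0.00214. The B cell genes Ms4a1 and Pax5 were at or below 0.0181 nRPKM in every library, while Cd79b lay between 15.5 and 23.3 nRPKM and Ighm between 262.8 and 376.3 nRPKM. Trim21, the cytosolic antibody receptor, was at 12.9 ± 1.0 and 14.7 ± 2.1 nRPKM (log2 fold change 0.19, edgeR adjusted p = 0.368). The third tested gene, Fcrlb, had a log2 fold change of −0.098 (edgeR adjusted p = 0.878).

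Downstream of the receptors, 3 of 46 genes of signalling and phagocytosis were lower in PS2APP;Trem2ko mice and none was higher, beside 1.53% and 0.503% of all tested genes. Fgr, a Src family kinase, was at 6.19 ± 2.90 nRPKM in PS2APP;Trem2wt and 2.31 ± 0.98 nRPKM in PS2APP;Trem2ko mice (log2 fold change −1.43, SE 0.29, edgeR adjusted p = 0.0165). It was called in each of the 13 fits without 1 mouse, and in females alone its adjusted p was 0.0629. Fyn, a further Src family kinase, had a log2 fold change of −0.82 (edgeR adjusted p = 0.0452) and was called in 2 of the 13 fits without 1 mouse. Rac1, a GTPase of the phagocytic cup, had a log2 fold change of −0.23 (edgeR adjusted p = 0.0483) and was called in 0 of those 13 fits, with adjusted p of 0.0536 to 0.0984. 50.3% of its 50-base words also occur in transcripts of the overlapping gene Daglb. The more abundant Src family kinase Lyn was at 122.6 ± 15.7 and 133.8 ± 8.3 nRPKM (edgeR adjusted p = 0.535). Syk, the kinase shared by both adaptor chains, was at 22.6 ± 2.4 and 23.6 ± 2.2 nRPKM (log2 fold change 0.058, SE 0.083, 95% interval −0.12 to 0.23, edgeR adjusted p = 0.803). The log2 fold change of Ptprc (CD45), which was also a sorting marker, was −0.17 (edgeR adjusted p = 0.498).

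On the inhibitory side, none of 12 phosphatases and adaptors passed, beside 1.53% of all tested genes called lower and 0.503% called higher. Inpp5d (SHIP1), which Fcgr2b recruits, was at 150.3 ± 22.1 and 151.2 ± 18.8 nRPKM (log2 fold change 0.0050, SE 0.10, edgeR adjusted p = 0.989). Ptpn6 (SHP1) had a log2 fold change of −0.013 (edgeR adjusted p = 0.965). Of 13 tested genes listed as inhibitory receptors 2, Pirb and Lilr4b, were higher in PS2APP;Trem2ko mice, beside 0.503% of all tested genes. Whether Lilr4b itself acts as an inhibitory receptor was not examined. Pirb, the paired immunoglobulin-like receptor B, was at 4.51 ± 0.74 and 7.22 ± 1.16 nRPKM without overlap (log2 fold change 0.68, SE 0.12, edgeR adjusted p = 0.00891). Lilr4b had a log2 fold change of 0.66 (SE 0.15, edgeR adjusted p = 0.0316) and was called in 4 of 13 fits without 1 mouse. Both share sequence with other genes, so their values are uncertain. Of the 50-base words of Pirb 34.0% (1579 words) occur in 1 or more of 500 other genes, 821 of them in Gm14548. Of those of Lilr4b 24.5% occur elsewhere, mostly in its relative Lilrb4a. Tyrobp was the only gene called among 13 tested adaptors and coupled receptors, beside 1.53% of all tested genes called lower and 0.503% called higher. None of the 3 tested antibody chain genes passed, and Igkc was at 31.7 nRPKM in PS2APP;Trem2wt replicate 5 and at or near 0 elsewhere.

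**Figure D4:**
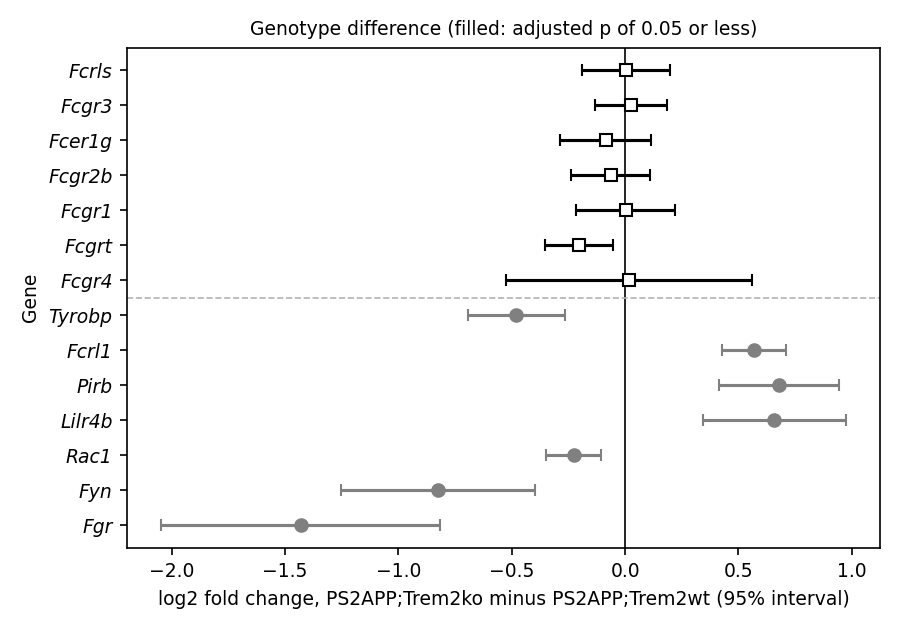
log2 fold change of PS2APP;Trem2ko against PS2APP;Trem2wt (horizontal, bars are 95% intervals from edgeR) for the 7 Fc receptor genes above the dashed line and for the called genes of the related lists below it (vertical). Open squares did not pass the adjusted threshold and filled circles did. All 7 receptor genes are open squares, 6 of their intervals cross 0, and Fcgrt lies at −0.20.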

How the data were processed

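RNA was sequenced from CD11b+ myeloid cells of 13 mice with single-end reads of 50 bases (SMART-Seq v4 libraries). The authors aligned reads to GRCm38 with GSNAP, and for each mouse they deposited raw gene counts of reads with a unique alignment, and nRPKM, an RPKM adjusted by a size factor. The annotation release, gene lengths and strand setting are not given in the sources used here. Groups and sex came from the sample labels, and the age from the study's methods. No 2 libraries of a genotype agreed within sampling noise (lowest chi-square per degree of freedom 19.6 over 36 pairs). The study describes processing most mice in pairs of both genotypes, but the labels do not say which, so no pair or batch term was used. p-values measure the spread between mice.

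Counts were tested with edgeR 4.0.16 in R 4.3.3 (filterByExpr, TMM, glmQLFit and glmQLFTest, no covariate), the standard error being the fold change divided by the square root of F. Gene names and coordinates came from GENCODE M21. Ratios within a mouse and the level order used exact permutation tests, and correlations used permutations within genotype. Scripts were tested on simulated data. Results were recomputed with DESeq2 1.42.0, with voom+limma (limma 3.58.1), with limma on nRPKM in log2 (pseudocounts 0.1 and 1), with other size factors and filters, on thinned counts, with sex as a term, in females, and without each mouse.

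The Fc receptor genes, the related lists and the rule for named genes were chosen with earlier results of these data known. Named were the 7 genes, Trem2, Tyrobp, Syk, Inpp5d, Ptpn6, B2m and Ptprc, the called genes of each list, and the 3 genes most correlated with each receptor, of which 1 is not reported here. Lyn, Igkc, Trim21, Fcrlb, the marker genes given singly and the genes named as changing with a setting were chosen after their values were seen. Depth was 26120961 to 120569609 counts per mouse, and the lowest of the 7 genes, Fcgr4, had 435 to 2897 counts. On thinned counts its standard error was 0.251, against 0.255 on all counts. With genotype means subtracted, r between log2 CPM and log2 total count lay between −0.401 (Fcer1g) and 0.459 (Fcgrt) over the 7 genes. These r values were not tested.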

Additional observations from a re-analysis of the deposited data

Results flagged for a closer look

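Of 22 groups of values (7 receptor genes and 4 ratios in each genotype) 1 held a mouse that stood apart from the rest by Dixon's criterion, which chance passes in about 1 in 20 groups. The Fcgr1 to Fcgr2b nRPKM ratio was 0.916 in the female PS2APP;Trem2ko replicate 2, and the nearest other PS2APP;Trem2ko mouse was at 0.782. This mouse also held the highest Fcgr1, Fcgr4 and Fcer1g levels of its genotype, at 95.4, 24.0 and 951 nRPKM.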

How the results depend on the processing

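No receptor gene was called under any of the 23 alternatives. Fcgr2b, Fcer1g and Fcgrt stayed negative throughout. The log2 fold changes near 0 changed sign: Fcgr1 to −0.0034 (voom+limma), −0.027 (sex as covariate) and −0.045 (females only), Fcgr4 to −0.014 (sex as covariate) and −0.16 (females only), and Fcrls to −0.0073 (sex as covariate) and −0.11 (females only). Leaving out each mouse gave −0.068 to 0.040 for Fcgr1, −0.015 to 0.060 for Fcgr3, −0.15 to 0.16 for Fcgr4 and −0.062 to 0.046 for Fcrls. The Fcgr4 to Fcgr2b log2 difference was −0.090 in females and −0.0085 to 0.22 without each mouse. The Fcer1g to Tyrobp difference held under every alternative run. The level order held by genotype, in females and without each mouse, and with GENCODE exonic lengths 5 of 7 genes kept their place, Fcgr2b and Fcgr1 changing places. No paired analysis was possible because the labels give no number that links mice of different genotype, although the study describes processing most mice in pairs of 1 per genotype, from perfusion to sorting. Any variation shared within such pairs stayed in the tests and correlations.

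The 3 called signalling genes became 5 with DESeq2 (Cfl1 and Marcks added) and 1 in females (Marcks), and 1 to 3 without each mouse, with 1 after leaving out any of PS2APP;Trem2wt replicates 2 to 6 or PS2APP;Trem2ko replicates 1 and 3 to 6. The 2 called genes of the inhibitory receptor list became 1 in females (Pirb) and 1 to 2 without each mouse. The count was 1 after leaving out any of PS2APP;Trem2wt replicates 1, 2, 4, 5 and 7 or PS2APP;Trem2ko replicates 1, 2, 3 and 5. The phosphatases became 1 with DESeq2 (Cbl), FcRn and recycling became 1 with DESeq2 and 1 in females (Stx6) and 0 to 1 without each mouse (1 without PS2APP;Trem2ko replicate 5), and the adaptors became 0 in females and 0 to 1 without each mouse (0 without PS2APP;Trem2ko replicate 4 or 6). Over all genes, DESeq2 called 530 lower and 332 higher against 262 and 86 with edgeR, and without a filter 222 and 53 were called. The cause was not tested.

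Correlations that did not pass changed sign without the 2 farthest mice (Fcgr1 and Fcgr3 −0.16, Fcgr1 and Fcgrt −0.063, Fcgr1 and Fcrls −0.074, Fcgr3 and Fcgrt −0.014, Fcer1g and Fcgrt 0.20), without centring (Fcer1g and Fcgrt 0.15), or in females only, an alternative chosen after seeing the data (Fcgr1 and Fcgr3 −0.089, Fcgr1 and Fcgrt −0.067, Fcgr1 and Fcrls −0.63, Fcgr2b and Fcgr3 −0.10, Fcgr3 and Fcer1g 0.022, Fcgr4 and Fcrls −0.35, Fcer1g and Fcgrt 0.36).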

Other observations

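Within PS2APP;Trem2ko mice Fcrls gave strongly negative r values with 3 other receptor genes. This is a description, since none of the 42 correlations within a genotype had an adjusted p under 0.05 and the difference between genotypes was not tested. Fcer1g and Fcrls gave r = −0.951 (exact permutation p = 0.00694, adjusted p = 0.0972), rho = −0.943 (exact permutation p = 0.0167, adjusted p = 0.175) and r = −0.70 without the 2 mice farthest from the median Fcer1g level. Over the 7 PS2APP;Trem2wt mice this pair gave r = 0.219 (exact permutation p = 0.578, adjusted p = 0.758), rho = 0.571 (exact permutation p = 0.20, adjusted p = 0.467) and r = 0.942 without 2 mice. Fcgr1 and Fcrls gave r = −0.915 (exact permutation p = 0.0139, adjusted p = 0.130) and rho = −0.657 (exact permutation p = 0.175, adjusted p = 0.432) in PS2APP;Trem2ko, with −0.39 without 2 mice, and r = 0.735 (exact permutation p = 0.0550, adjusted p = 0.203) and rho = 0.679 (exact permutation p = 0.110, adjusted p = 0.354) in PS2APP;Trem2wt, with −0.19 without 2 mice. Fcgr4 and Fcrls gave r = −0.947 (exact permutation p = 0.0194, adjusted p = 0.130) and rho = −0.600 (exact permutation p = 0.242, adjusted p = 0.483) in PS2APP;Trem2ko, with 0.074 without 2 mice, so that value rested on those 2 mice. In PS2APP;Trem2wt this pair gave r = 0.707 (exact permutation p = 0.0581, adjusted p = 0.203) and rho = 0.679 (exact permutation p = 0.110, adjusted p = 0.354), with 0.920 without 2 mice.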
